A study of Mus musculus with 30 samples.

Results

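The 10 libraries described here are those of mice with experimental autoimmune encephalomyelitis (EAE) that received the RIPK1 inhibitor GSK'547 (EAE-RIPK1inh), 5 of sorted spinal cord microglia and 5 of sorted spinal cord astrocytes, and the question put to them was which genes differed between the glial cell types under treatment. The members are the genes with a mean of at least 1 on the deposited log2 FPKM scale over these 10 libraries, 11433 of the 30952 genes in the table, of which 10716 are annotated as protein-coding. FPKM counts fragments per kilobase of exon, scaled to the sequenced fragments of the library, and 1 log2 unit is a doubling. At the threshold, Gm13722 and Prrg1 (both 1.0002) and Wfdc1 (1.0004) were inside, and Ubxn7 (1.0 when rounded), Il12rb2 (0.9998) and Adamts1 (0.9997) were just outside.

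All mice with EAE in the series were female C57BL/6 mice, 8 to 10 weeks of age, immunized with MOG35-55, a peptide of a myelin protein. At a clinical score of about 1 they were dosed BID by oral gavage for 3 days, with 50 mg/kg of GSK'547 in the group described here or with 20% Captisol alone in EAE-vehicle mice. Naive mice, which had no EAE, are the other group, and all 3 groups were sorted by the same gates, GLAST+ cells without CD11b, CD45 and CD140a as astrocytes and CD11b+ cells with intermediate CD45 and CX3CR1 as microglia. The series holds 4 naive, 6 EAE-vehicle and 5 EAE-RIPK1inh libraries of each cell type. Both sorts of EAE-RIPK1inh mice were made from the spinal cords of the same 5 mice, but the labels do not say whether a microglia and an astrocyte library with the same number share a mouse. The tests here treat the 10 libraries as independent.

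Microglia are the resident macrophages of the CNS, which depend on CSF1 receptor signaling and the transcription factor PU.1 and are known for phagocytosis, complement production and antigen presentation. Astrocytes derive from neuroepithelium and are known for clearing glutamate and potassium, for water transport at vessels, and for supplying lipids and metabolic substrates to neurons. RIPK1 is a kinase downstream of TNF receptor 1, which can lead to apoptosis through caspase-8, to necroptosis through RIPK3 and MLKL, or to inflammatory gene expression.

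The microglia libraries were more uniform than the astrocyte libraries. In microglia 14105 to 14865 genes had signal above the values that the normalization gives to genes without reads, and in astrocytes 9898 (replicate 5) to 14112. Over 5040 genes with signal in all 10 libraries, Pearson's r across genes was 0.841 to 0.968 between microglia libraries, 0.645 to 0.849 between astrocyte libraries and 0.361 to 0.568 between the cell types. The median SD over members was 0.606 in microglia and 1.254 in astrocytes. Signal in all 10 libraries was present for 4978 members, while 138 members had signal in all 5 microglia libraries and in no astrocyte library, and 71 had the reverse. In bulk libraries such as these, a larger share of expressing cells and more RNA per cell cannot be told apart.

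The labels matched the marker genes. Of 12 microglia markers, 12 were higher in microglia, and their mean level per library ran from 8.40 to 9.49 in the 5 microglia libraries and from 1.99 to 2.97 in the 5 astrocyte libraries. Of 14 astrocyte markers, 13 were higher in astrocytes, with library means of 8.33 to 9.46 in astrocytes and 0.97 to 1.71 in microglia. The exception was Glul (glutamine synthetase), at 8.62 ± 0.52 in astrocytes and 7.44 ± 0.75 in microglia (SD, n = 5 each, as throughout, adjusted p = 0.0883 in limma). The genes of the sorting proteins are given as a description. Cx3cr1 was at 8.01 in microglia and 1.90 in astrocytes, Itgam (CD11b) at 7.39 and 1.28, and Ptprc (CD45) at 6.93 and 4.11, with Ptprc from 1.24 to 6.13 across astrocyte libraries. Slc1a3, which encodes GLAST, was not higher in the cells sorted for GLAST, at 5.22 ± 0.29 in astrocytes and 5.95 ± 0.26 in microglia.

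**Figure D1:**
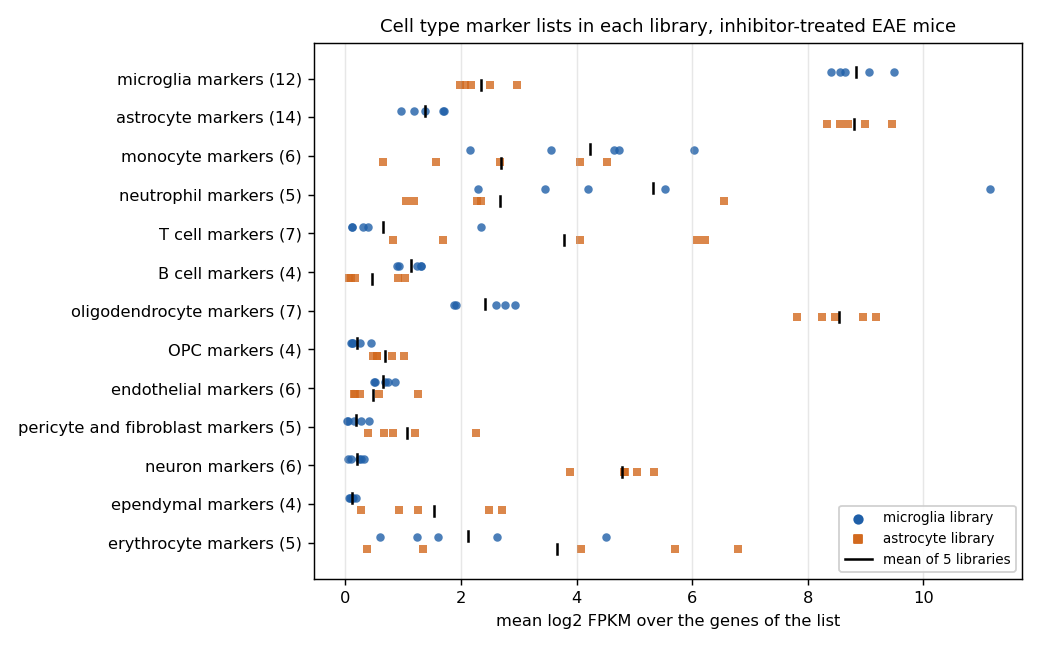
Mean log2 FPKM over each marker list (vertical axis, lists; horizontal axis, log2 FPKM) in each of the 5 microglia and 5 astrocyte libraries of EAE-RIPK1inh mice, 1 point per library. The microglia markers lie at 8.40 to 9.49 in microglia libraries and the oligodendrocyte markers at 7.81 to 9.19 in astrocyte libraries.

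Genes of other cells were present in both sorts, and their part in the differences reported here was not tested. In astrocyte libraries all 7 oligodendrocyte markers were higher than in microglia (library means 7.81 to 9.19, against 1.88 to 2.94), with Mbp (myelin basic protein) at 13.59 against 4.34. Of 6 neuron markers 4 were higher in astrocyte libraries (library means 3.88 to 5.34, against 0.04 to 0.32), among them Nefl (neurofilament light chain) at 8.70 against 0.31 and Snap25 at 7.59 against 0.14. The 7 T cell markers averaged 0.83 to 6.23 in astrocyte and 0.11 to 2.35 in microglia libraries, and Cd3g and Cd2 passed the test. Neutrophil markers reached a library mean of 11.16 in microglia replicate 3 and 6.56 in astrocyte replicate 3, against 2.30 to 5.53 and 1.04 to 2.34 in the other libraries of each cell type, and none of 5 passed. Of 6 monocyte markers, Ms4a4c passed, at 6.57 in microglia and 1.27 in astrocytes. Erythrocyte markers, with library means of 0.37 to 6.80 in astrocytes and 0.60 to 4.51 in microglia, did not pass. Markers of OPCs, endothelial cells and pericytes did not pass either, while 1 of 4 ependymal markers (Rarres2) was higher in astrocytes and 1 of 4 B cell markers (Cd79b) in microglia.

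Of 28301 genes tested in the fit, 11.6% were called at an adjusted p under 0.05 with a fold over 1.5, 6.57% as higher in microglia and 5.08% as higher in astrocytes. Among the members 3088 were called (27%), 1680 higher in microglia and 1408 higher in astrocytes, and 8345 were not called. Members were selected on their level, which a gene can reach through either cell type alone, so nothing is read from the larger share. For each gene list below, the calls are to be set beside this 27% of members. A list near that share is not read as a result. The median difference, as microglia minus astrocytes, was 0.43 log2 units over members and -0.05 over all genes tested. Differences were large: the median size over called members was 3.00 log2 units, 791 were higher in microglia by at least 3 units, and 755 were higher in astrocytes by that much. Of the members called, 131 higher in microglia had signal in no astrocyte library, and 99 higher in astrocytes had signal in no microglia library. The annotation marks 6471 members, and 1707 of those called, as confounded with another gene at the same place, so their reads may be shared. Among the genes described below, these include Fcgr3, Fcgr4, Ctss, Cd74, Gfap, Aqp4, Mbp, Ripk1, Casp8, Mlkl and most Hox and mitochondrial genes.

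**Figure D2:**
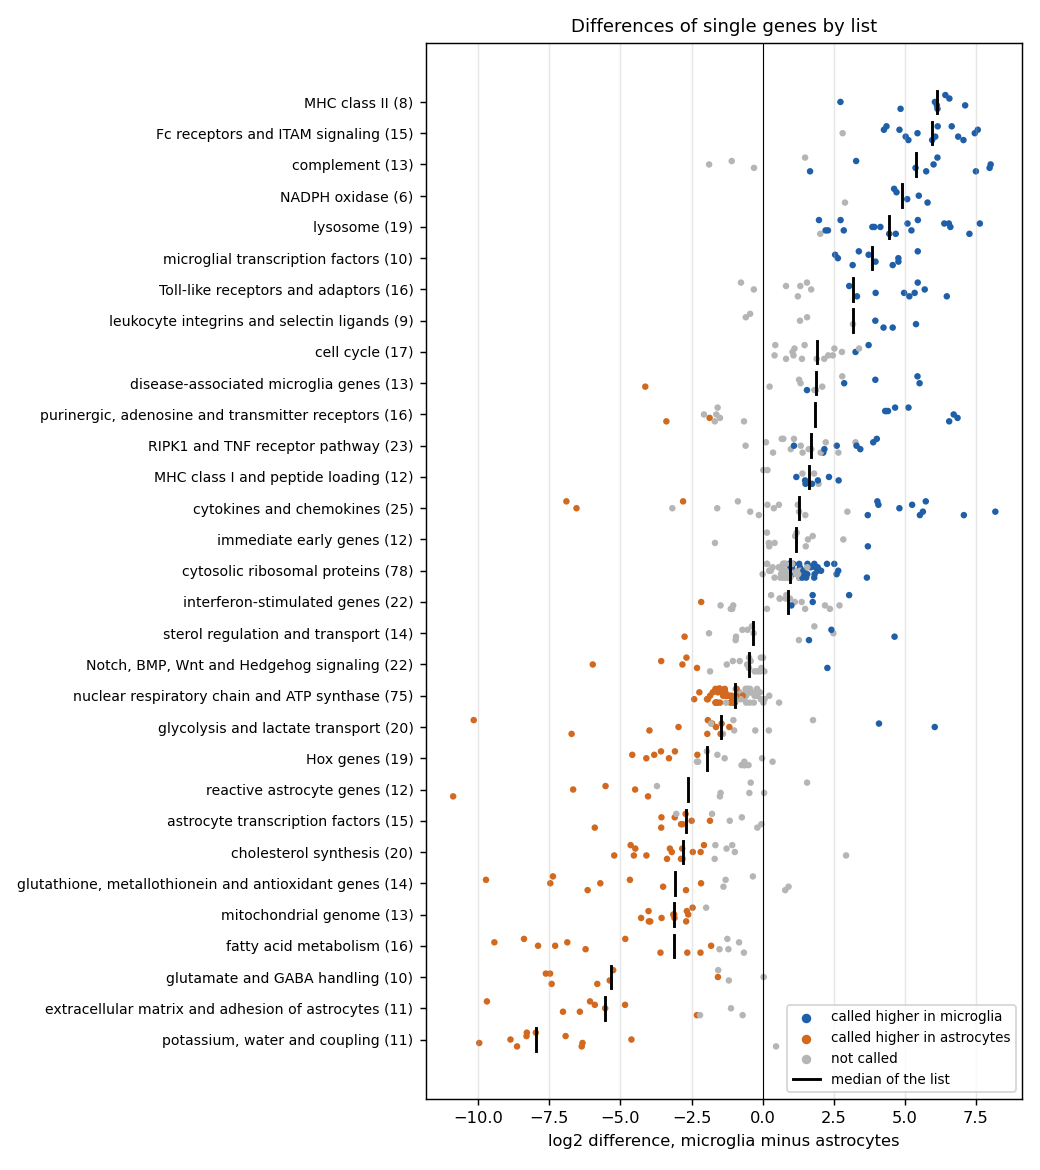
Difference in log2 FPKM (microglia minus astrocytes, horizontal axis) of each gene of the functional lists (vertical axis) in EAE-RIPK1inh mice, with the list's median. The medians run from -7.98 for potassium, water and coupling genes to 6.14 for MHC class II genes, against -0.05 over all genes tested.

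The members with the largest differences toward microglia were genes of complement C1q, Fc receptors, the lysosome and a chemokine. Ccl12, a monocyte-attracting chemokine, was at 12.02, 10.57, 9.54, 9.58 and 9.97 in the microglia libraries and at 2.08, 4.34, 0.56, 1.51 and 2.25 in the astrocyte libraries. The groups lay far apart, with a difference of 8.19 ± 0.72 log2 units (SE, adjusted p = 4.59e-05, exact permutation p = 0.00794, two-sided, the smallest that 5 against 5 libraries can give). C1qc, a chain of the C1q complex that starts the classical complement pathway, was at 12.10, 11.93, 12.43, 12.70 and 12.87 in microglia and 2.86, 4.67, 3.99, 4.22 and 6.16 in astrocytes (difference 8.02 ± 0.53, adjusted p = 7.4e-06). Pld4, a lysosomal exonuclease, was at 10.13, 10.00, 9.43, 10.19 and 10.23 in microglia and at 0.93 to 3.73 in astrocytes. Fcgr4, an activating IgG receptor, was at 8.26 to 9.26 in microglia and 0.00 to 3.82 in astrocytes, and Ctss (cathepsin S, a protease that trims the MHC class II invariant chain) at 13.93 to 15.34 and 6.33 to 7.58. The 10 largest also included C1qb, C1qa, Fcgr3 and Tmem119.

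PU.1 (Spi1), the factor that macrophage and microglial genes are known to depend on, binds purine-rich sequences, and promoters were searched for GAGGAAGT on either strand (ACTTCCTC on the other) in windows of 250 bases before to 50 bases from the start site. The promoters are shown of the 4 genes among the 10 largest differences toward microglia that hold it, out of 7 with an entry in the table, and none of the 8 astrocyte genes with an entry held it. They are printed from 200 bases before to 20 bases from the start site, 5′ to 3′ on the strand of the gene, with the motif in capitals (RefSeq promoters, GRCm38.p6). The printed stretch of C1qc is chr4:136892895-136893114 on the minus strand, that of Fcgr4 chr1:171018726-171018945, that of Ctss chr3:95526586-95526805 and that of Pld4 chr12:112760455-112760674, the last 3 on the plus strand.
C1qc: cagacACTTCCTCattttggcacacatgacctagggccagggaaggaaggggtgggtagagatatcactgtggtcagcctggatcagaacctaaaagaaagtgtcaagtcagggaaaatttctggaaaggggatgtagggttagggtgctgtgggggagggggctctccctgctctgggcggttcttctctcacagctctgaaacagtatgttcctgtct
Fcgr4: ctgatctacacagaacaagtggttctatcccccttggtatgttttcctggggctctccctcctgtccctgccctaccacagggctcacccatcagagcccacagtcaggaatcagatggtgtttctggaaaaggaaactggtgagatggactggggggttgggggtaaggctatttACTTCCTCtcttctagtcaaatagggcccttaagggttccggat
Ctss: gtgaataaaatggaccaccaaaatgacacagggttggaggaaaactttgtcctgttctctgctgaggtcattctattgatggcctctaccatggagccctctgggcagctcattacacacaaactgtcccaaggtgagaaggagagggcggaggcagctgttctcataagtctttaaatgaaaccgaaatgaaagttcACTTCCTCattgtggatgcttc
Pld4: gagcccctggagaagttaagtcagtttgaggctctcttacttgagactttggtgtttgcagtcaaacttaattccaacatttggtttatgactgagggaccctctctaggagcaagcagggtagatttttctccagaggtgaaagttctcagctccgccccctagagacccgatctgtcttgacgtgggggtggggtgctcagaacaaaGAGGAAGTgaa

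In C1qc the motif begins 195 bases before the start site, in Fcgr4 24 and in Ctss 2 bases before it, while in Pld4 it lies just downstream of the start. Over all members the motif was in 6.55% of 1603 promoters of genes called higher in microglia, in 1.44% of 1459 promoters of genes called higher in astrocytes, in 3.03% of 8292 promoters of genes not called, and in 3.2% of all 32851 promoters in the table. A half-site of nuclear factor I (TTGGCA, or TGCCAA), a factor family of astrocyte development, was in 11.3% of the promoters called higher in microglia, 14.5% of those called higher in astrocytes, 10.5% of those not called and 14.1% of all promoters. A SOX motif (ACAAAG, or CTTTGT) was in 16.6%, 16.4%, 12.8% and 18.7%, in the same order. These are matches of letters and no measurement of binding.

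All 10 microglial transcription factors listed were higher in microglia, with a median difference of 3.85 log2 units. Spi1 was at 6.72, 5.86, 7.62, 7.73 and 7.75 in microglia and at 1.64, 4.13, 2.33, 2.71 and 1.99 in astrocytes (difference 4.58 ± 0.54, adjusted p = 0.000363). Irf8, which acts with PU.1, was at 6.69 to 8.66 in microglia and 1.03 to 4.60 in astrocytes. The smallest difference in the list was that of Sall1, a factor of microglial identity, at 5.02 ± 0.57 against 2.46 ± 0.94.

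Of 13 complement genes 9 were higher in microglia and none in astrocytes (median difference 5.38). Besides the C1q chains, these included the anaphylatoxin receptors C3ar1 (6.83 ± 0.44 against 0.68 ± 0.43) and C5ar1, and Cfb, C2 and C4b. C3 itself was at 5.11 ± 0.59 in microglia and 3.61 ± 2.10 in astrocytes and did not pass (adjusted p = 0.27), nor did the inhibitors Serping1 and Cd59a, whose means were higher in astrocytes and which were both called without astrocyte replicate 1.

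Receptors that signal through ITAM motifs and their kinases were among the most uniform differences, with 14 of 15 higher in microglia (median 5.96). Trem2, a lipid receptor of microglia, was at 9.52, 9.14, 9.21, 9.47 and 9.70 in microglia and 1.95, 3.77, 3.35, 1.20 and 2.38 in astrocytes, and its adaptor Tyrobp at 10.46 to 11.57 and 1.89 to 5.90. Neither gene overlapped between the groups. Downstream, Lyn, Btk, Vav1, Plcg2 and the phosphatase Inpp5d passed, and the kinase Syk did not (3.85 ± 0.83 against 1.03 ± 1.71, adjusted p = 0.0512). Of 6 NADPH oxidase genes, which produce superoxide, 5 were higher in microglia, with Cybb, the catalytic subunit, at 6.95 ± 0.57 against 1.15 ± 0.88.

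All 8 MHC class II genes were higher in microglia (median 6.14). Cd74, the invariant chain and the gene of the highest mean in microglia, was at 14.48, 14.48, 15.34, 14.48 and 13.71 there and at 6.67, 8.20, 8.52, 7.64 and 5.84 in astrocytes (difference 7.12 ± 0.53, adjusted p = 1.65e-05). H2-Ab1, an antigen-presenting chain, was at 11.64 to 13.01 in microglia and 4.93 to 7.32 in astrocytes, and Ciita, the activator of these genes, at 4.91 ± 1.09 and 2.17 ± 1.23. MHC class I genes differed less, with a median of 1.62 and 7 of 12 higher in microglia. B2m was high in both, at 14.02 ± 0.45 and 11.69 ± 0.28. The 7 calls were 3 without microglia replicate 1, 4 or 5 and 4 without microglia replicate 2 or 3 or astrocyte replicate 1, 2 or 3. Tap2 and the immunoproteasome gene Psmb10 had nearly equal means, 5.58 and 5.56, and 7.60 and 7.43.

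The lysosome list held 18 of 19 genes higher in microglia (median 4.45). Cd68, a lysosomal glycoprotein of macrophages, was at 9.22 to 9.92 in microglia and 1.89 to 4.40 in astrocytes. Smaller differences were those of Npc2, a cholesterol carrier (8.73 ± 0.26 against 6.43 ± 0.22), and Ctsl, and Lamp1 did not pass (adjusted p = 0.0755). Of 16 Toll-like receptor and adaptor genes 9 were higher in microglia (median 3.18). Cd14, the coreceptor for lipopolysaccharide, was at 7.01 ± 0.84 against 0.53 ± 0.83, and Tlr7, a receptor for single-stranded RNA, at 6.02 ± 0.43 against 0.67 ± 0.45. Tlr3, Myd88 and Irak4 did not pass.

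Toward astrocytes the largest difference was that of Gfap, the intermediate filament of astrocytes, at 12.43, 13.32, 13.12, 13.12 and 12.23 in astrocytes and 0.00, 0.31, 3.91, 2.37 and 3.18 in microglia (difference -10.89 ± 0.75, microglia minus astrocytes, adjusted p = 9.16e-06). Aldoc, the glycolytic aldolase of the brain, was at 11.93 to 12.87 in astrocytes and 0.33 to 3.06 in microglia. Acsbg1, an acyl-CoA synthetase for long fatty acids, had the smallest spread of the 10 largest differences, at 10.03, 9.92, 9.63, 9.95 and 10.03 in astrocytes and 0.20, 0.21, 0.51, 1.10 and 0.35 in microglia (adjusted p = 3.24e-08). The others were Atp1b2, Ndrg2, Mt3, Sparcl1, Aldh1a1, Plekhb1 and Mobp, with astrocyte means of 10.17 to 12.21. Of these Mobp is a myelin gene and was on the oligodendrocyte list.

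Genes for potassium, water and gap junctions were nearly all higher in astrocytes, 10 of 11 (median -7.98). Aqp4, the water channel of astrocyte endfeet, was at 9.56, 9.18, 9.04, 8.46 and 10.00 in astrocytes and 0.00 to 0.98 in microglia (adjusted p = 1.74e-07). The sodium pump subunit Atp1b2, the connexins Gja1 and Gjb6, and the potassium channels Kcnj10 and Kcnj16 passed, while the chloride cotransporter Slc12a2 did not (1.26 ± 1.31 in astrocytes, 1.73 ± 0.35 in microglia). Of 10 genes for glutamate and GABA, 7 were higher in astrocytes (median -5.32), among them the glutamate transporter Slc1a2 and Abat, which degrades GABA. Slc38a1 differed by less than the spread, at 4.69 ± 0.69 and 4.73 ± 0.65. Matrix and adhesion genes included 8 of 11 that were higher in astrocytes, such as Sparcl1, Hepacam, Bcan and Ncan. Sparc, a collagen-binding protein, was at 11.32 to 12.10 in astrocytes and also at 8.56 to 10.10 in microglia.

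Of 15 astrocyte transcription factors 9 were higher in astrocytes (median -2.71) and none in microglia. Sox9, a factor of glial fate, was at 6.21, 6.39, 6.03, 5.12 and 7.15 in astrocytes and at 0.00 to 0.45 in microglia, and Id4 was at 3.02 to 3.96 and without signal in all 5 microglia libraries. Nfib passed, and Nfia, of the same family, did not (4.10 ± 0.42 against 2.95 ± 1.07, adjusted p = 0.169). Hox genes, which mark position along the body axis, were at or near the values of genes without signal in microglia, with library means of 0.02 to 0.19 over 19 genes. In astrocytes 7 of the 19 were called, namely Hoxa7, Hoxa9, Hoxb5, Hoxb6, Hoxb7, Hoxc8 and Hoxc9. Hoxa7 had the highest level, at 4.41, 4.02, 4.48, 4.95 and 5.80. Paralogs of groups 3 and 4 (Hoxa3, Hoxa4, Hoxb3, Hoxb4 and Hoxd4) were at means of 0.00 to 0.76 in astrocytes.

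Antioxidant genes were higher in astrocytes in 9 of 14 cases (median -3.10). Mt3, the brain metallothionein, was at 10.79 to 11.25 in astrocytes and 0.18 to 2.10 in microglia. Prdx6, a peroxiredoxin (11.39 ± 0.29 against 5.24 ± 1.11), and the glutathione transferases Gstm1 and Gsta4 passed as well, while Gpx1 had the higher mean in microglia and did not (8.81 ± 0.34 against 7.90 ± 1.38, adjusted p = 0.304).

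Of 20 genes of glycolysis and lactate transport 11 were higher in astrocytes and 2 in microglia (median -1.46). The 2 were hexokinases: Hk2 was at 6.93, 6.94, 6.86, 5.77 and 5.94 in microglia and 0.57, 0.42, 0.11, 0.84 and 0.21 in astrocytes, and Hk3 at 6.15 ± 0.94 and 2.06 ± 1.41. Hk1, another hexokinase gene, had the opposite order, at 5.05 to 6.12 in astrocytes and 0.89 to 2.73 in microglia. The phosphofructokinase Pfkm was at 8.00 to 8.45 in astrocytes and 0.83 to 1.98 in microglia, Pfkp had means of 6.80 and 3.84, and Pfkl was at 5.30 ± 1.32 and 5.52 ± 0.62. Later enzymes of the pathway differed by less, as for Eno1 (9.64 ± 0.21 in astrocytes, 7.71 ± 0.11 in microglia), and Gapdh and Ldha did not pass.

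Cholesterol synthesis genes were higher in astrocytes in 13 of 20 cases (median -2.82) and in microglia in none. Hmgcs1, an early enzyme of the mevalonate pathway, was at 8.67, 7.33, 6.85, 7.61 and 7.93 in astrocytes and 3.65, 2.30, 3.23, 2.78 and 3.80 in microglia (adjusted p = 4.87e-05). Idi1, Sqle, Fdft1 and Cyp51 had differences of -5.22 to -4.09. Ebp did not pass and had a higher mean in microglia (5.78 ± 0.40 against 2.85 ± 2.24, adjusted p = 0.0787). With a weight for the spread of each cell type 5 of the 13 calls were left. The cholesterol exporters Abca1 and Abcg1 and the lysosomal carrier Npc1 were higher in microglia, with Abcg1 at 6.25 ± 1.36 against 1.61 ± 1.32, and Srebf2, the transcription factor of sterol synthesis, was higher in astrocytes, at 5.88 ± 0.27 against 3.14 ± 0.98. Of 16 fatty acid genes 11 were higher in astrocytes (median -3.12), and the desaturase Scd1 was at 8.62, 7.64, 6.81, 7.64 and 7.45 there and at 0.00 to 0.73 in microglia.

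Transcripts of the mitochondrial genome were higher in astrocytes in 12 of 13 cases (median -3.11). The value of mt-Cytb was 15.34 in all 5 astrocyte libraries, the highest value of the quantile-normalized scale, so its difference cannot exceed what that ceiling allows. mt-Nd1 was at 14.48, 14.48, 14.48, 14.48 and 14.20 in astrocytes and 10.03, 10.38, 10.97, 10.13 and 10.62 in microglia (adjusted p = 4.66e-06). Nuclear genes of the respiratory chain and ATP synthase differed by less, with 39 of 75 higher in astrocytes, none in microglia and a median of -0.96. Atp5b, the catalytic subunit of ATP synthase, was at 9.75 to 10.67 in astrocytes and 7.33 to 8.55 in microglia. With a weight for each cell type 11 of the 75 were called. Cytosolic ribosomal protein genes had the opposite sign: 78 of 78 differences were positive (median 0.97), and 33 were called as higher in microglia. Over all 11433 members 6790 differences were positive (median 0.43), and 1680 were called as higher in microglia. The count of 33 was 17 to 29 when 1 library was left out, and 7 with a weight for each cell type. It was lowest without microglia replicate 5 (20 and 21 without replicates 3 and 4). Rpl35 was at 8.49 to 9.70 in microglia and 4.69 to 7.12 in astrocytes.

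Of 25 cytokine and chemokine genes tested, 10 were higher in microglia and 3 in astrocytes (median 1.28). The CC chemokines Ccl2, Ccl3, Ccl4, Ccl5, Ccl7, Ccl9 and Ccl12, which attract monocytes and T cells, were all on the microglial side, together with Cxcl9, Cxcl16 and Il1a. Ccl2 was at 9.95, 9.52, 8.46, 9.33 and 8.73 in microglia and 1.29, 0.00, 4.66, 0.00 and 4.65 in astrocytes (adjusted p = 0.00125). Il1a, an IL-1 receptor ligand, was at 7.94, 6.71, 4.24, 6.90 and 6.54 and at 0.06 to 2.46, and Il1b did not pass (4.60 ± 1.06 against 1.61 ± 1.80, adjusted p = 0.0563).

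Astrocytes were higher in Il33, Cxcl14 and Cx3cl1. Il33, a nuclear alarmin, was at 7.35, 6.82, 6.80, 7.15 and 7.27 in astrocytes and at 0.00, 0.00, 0.33, 0.30 and 0.25 in microglia (adjusted p = 8.29e-08). Cxcl14 was at 6.69 to 8.16 and 0.00 to 1.36. The chemokine Cx3cl1 was at 2.78, 0.24, 4.35, 3.50 and 4.08 in astrocytes and 0.16 to 0.25 in microglia, so astrocyte replicate 2 lay in the range of microglia (adjusted p = 0.0346). Of the ligand and receptor pairs listed, this was the only one with the ligand called in one cell type and the receptor, Cx3cr1, called in the other, and CX3CR1 was also a sorting marker. Cxcl10, an interferon-induced chemokine, was present in both cell types, at 6.47 to 8.95 in microglia and 5.14 to 6.99 in astrocytes (adjusted p = 0.0953). Il6 and Tgfb2 were at means under 1 in both, and Lif had no value above 0 in any library.

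**Figure D3:**
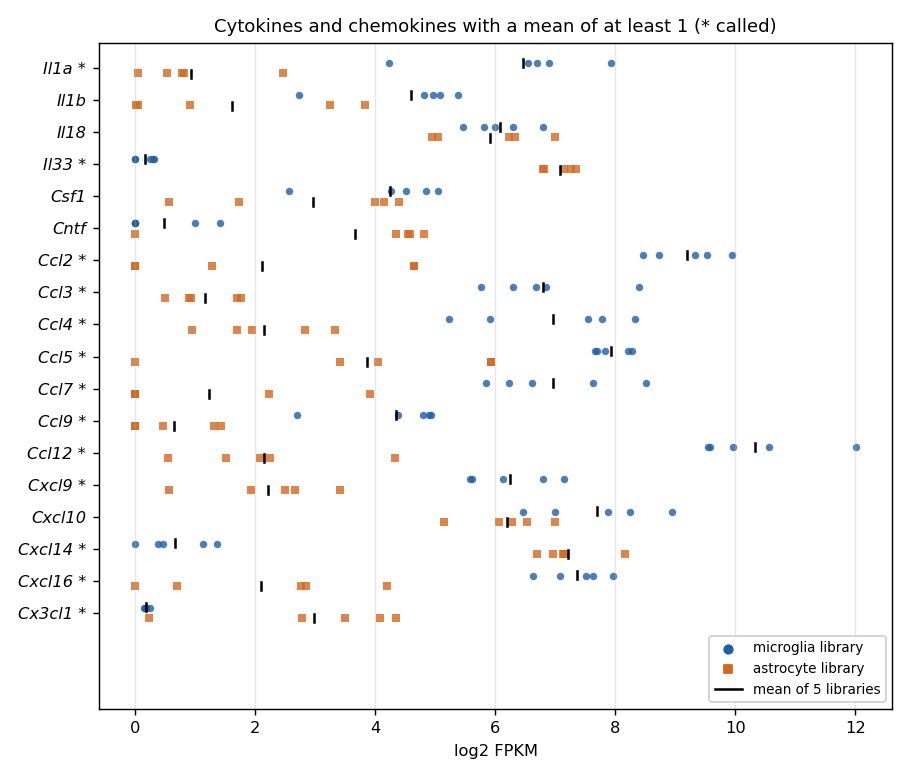
log2 FPKM (horizontal axis) of cytokine and chemokine genes (vertical axis) in EAE-RIPK1inh mice, 1 point per library and cell type. Ccl12 lies at 9.54 to 12.02 in microglia and 0.56 to 4.34 in astrocytes, and Il33 at 6.80 to 7.35 in astrocytes and 0.00 to 0.33 in microglia.

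Of 26 receptors in the ligand and receptor pairs listed, 9 were higher in microglia, 2 in astrocytes and 15 were not called. Csf1r, the receptor for CSF1 and IL-34, was at 9.63 ± 1.06 against 3.05 ± 1.26, while neither Csf1 nor Il34 passed. Mertk, a receptor for apoptotic cells, was at 6.23 to 6.58 in microglia and 1.49 to 3.93 in astrocytes, and its ligand Pros1 was also higher in microglia (6.27 to 8.75, against 0.56 to 5.84). Tgfbr1 was at 5.53 to 6.80 and 0.58 to 1.97. On the astrocyte side the endothelin receptor Ednrb was at 4.83 to 8.51, against 0.00 to 0.30. On the list of purinergic, adenosine and transmitter receptors, P2ry6, P2ry12, P2ry13, P2rx4 and P2rx7, with the ATP-degrading enzyme Entpd1, were higher in microglia, and P2ry1 (3.70 ± 1.18 against 0.31 ± 0.46) and the adenosine receptor Adora1 (6.30 ± 0.30 against 4.44 ± 1.06) in astrocytes. The 2 astrocyte calls were 4 without astrocyte replicate 1, and 1 without astrocyte replicate 2 or 5 or microglia replicate 1, 3 or 5.

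Of 23 genes of the RIPK1 and TNF receptor pathway, 8 were higher in microglia and none in astrocytes. Of the 23 differences, 22 were positive (median 1.71, against 0.43 over all members). Over all members 27% were called and 6790 of 11433 differences were positive, so nothing is read from the count of 8. Ripk1, the target of the inhibitor (chr13:34002363-34037147, GRCm38), was at 4.11, 3.82, 2.80, 3.37 and 2.70 in microglia and 0.00, 2.44, 1.63, 0.62 and 1.44 in astrocytes. Astrocyte replicate 2 (2.44) lay close to microglia replicate 5 (2.70), and the call (2.13 ± 0.51, adjusted p = 0.0241) was lost when astrocyte replicate 4 or microglia replicate 1, 2 or 4 was left out. With the replicate number as a block its adjusted p in limma was 0.0993. Ripk3, its partner in necroptosis (chr14:55784995-55788865), was at 3.22, 4.08, 3.83, 3.11 and 2.94 in microglia and had no signal in any of the 5 astrocyte libraries (adjusted p = 9.43e-05). Mlkl, which permeabilizes the membrane in necroptosis, was at 1.67, 4.26, 2.61, 3.91 and 3.27 in microglia and 0.29, 2.16, 2.48, 3.53 and 0.54 in astrocytes. The groups overlapped, with an adjusted p of 0.226 in limma. T cell markers, at means of 0.83, 4.06, 6.08, 6.23 and 1.69 in these astrocyte libraries, had the same order. Their part in the level of Mlkl was not tested.

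Casp8, the initiator caspase that also cleaves RIPK1, was at 6.13, 6.57, 6.27, 6.05 and 6.15 in microglia and 0.80, 4.10, 1.21, 4.13 and 1.48 in astrocytes (adjusted p = 0.00466). Zbp1, a nucleic acid sensor that binds RIPK3, was at 6.80 to 7.62 in microglia and at 1.46, 3.67, 5.60, 5.73 and 0.07 in astrocytes. The T cell markers, at means of 0.83, 4.06, 6.08, 6.23 and 1.69 in the same astrocyte libraries, were highest where Zbp1 was highest, and their part in its level was not tested. Cflar, Birc2, Sharpin and the TNF receptor Tnfrsf1b were also called. The TNF receptor that engages RIPK1, Tnfrsf1a, did not pass (5.85 ± 0.83 against 4.87 ± 1.97, adjusted p = 0.42), nor did Tnf (5.17 ± 0.80 against 2.95 ± 1.81, adjusted p = 0.13), and Ikbkg was the gene with the higher mean in astrocytes (3.59 against 2.99). The count of 8 was 4 without microglia replicate 1 or 2, and 5 without astrocyte replicate 1 or microglia replicate 3, 4 or 5.

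**Figure D4:**
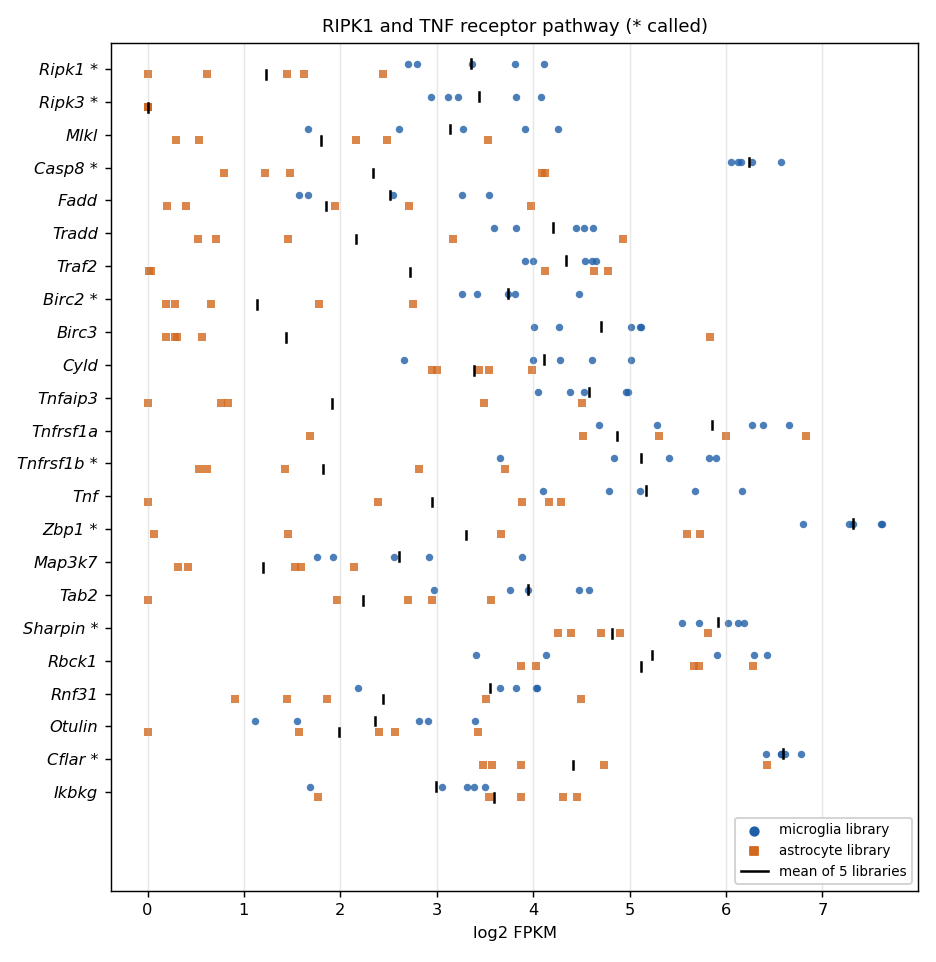
log2 FPKM (horizontal axis) of the 23 genes of the RIPK1 and TNF receptor pathway (vertical axis) in EAE-RIPK1inh mice, 1 point per library and cell type. Microglia libraries lie close together, as Casp8 at 6.05 to 6.57, and astrocyte libraries are spread out, as Casp8 at 0.80 to 4.13.

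Genes of disease-associated microglia were higher in microglia in 5 of 13 cases and in astrocytes in 1. Cst7, a cystatin, was at 7.16 to 9.00 in microglia and 0.64 to 4.93 in astrocytes, and Clec7a, Itgax, Cd9 and Igf1 were also called. Fabp5, a fatty acid carrier, was the exception, at 9.01, 7.37, 7.36, 7.84 and 8.04 in astrocytes and 3.07 to 4.93 in microglia. Gpnmb was at 3.31 ± 0.68 and 3.07 ± 1.42. Of 12 reactive astrocyte genes 5 were higher in astrocytes, namely Gfap, Serpina3n, Hspb1, Timp1 and Steap4. Serpina3n, a protease inhibitor, was at 6.27 to 8.52 against 0.00 to 1.08. Lcn2 and Vim did not pass, and Lcn2 was at 4.12 ± 3.18 in microglia. That mean rests on microglia replicate 3, at 9.73 against 2.16 to 3.55 in the others, and Lcn2 was called without it (adjusted p = 0.0027 in limma). Replicate 3 also had the highest neutrophil marker mean (11.16), whose part was not tested.

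Interferon-stimulated genes were present in both cell types, and 17 of 22 were not called (median 0.90, against 0.43 over all members). Over all members 27% were called and over all genes tested 11.6%, so nothing is read from this count or the small counts below. Gbp2, Mx1 and Rtp4 were among those higher in microglia, and Ifit3 in astrocytes, at 8.24, 8.86, 9.08, 8.80 and 8.70 against 6.91, 6.80, 5.80, 6.73 and 6.62 (adjusted p = 0.000375). The microglial count of 4 was 2 without microglia replicate 1 or 2, and the astrocyte count of 1 was 3 without astrocyte replicate 1 and 2 without astrocyte replicate 2. Isg15 (5.51 ± 0.38 and 4.91 ± 1.14), Irf7 and Oasl2 were among those not called. Of 12 immediate early genes 1 was called (Zfp36, higher in microglia), and of 17 cell cycle genes 2 (Ccnb2 and Mcm3, higher in microglia). The cell cycle count was 6 without astrocyte replicate 3, and 1 without astrocyte replicate 1 or microglia replicate 2, 3 or 5. Of 22 genes of Notch, BMP, Wnt and Hedgehog signaling, Id2, Id3, Id4, Ptch1 and Bmpr1b were higher in astrocytes and Notch2 in microglia. The 5 astrocyte calls were 3 without microglia replicate 3, 4 or 5, and the call of Notch2 was lost in 9 of 10 cases when 1 library was left out. Of 9 leukocyte integrins and adhesion ligands 4 were higher in microglia (Icam1, Selplg, Itgb2 and Itgax).

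Genes at high levels in both cell types were few, and 69 members had a mean of at least 8 in each. Of these 39 were called, 19 toward microglia and 20 toward astrocytes. Apoe, the lipid carrier of the CNS, was at 15.34, 13.93, 12.70, 15.34 and 14.20 in microglia and 12.23, 12.10, 11.93, 12.23 and 13.93 in astrocytes. The groups overlapped (adjusted p = 0.0861 in limma), and 15.34 is the highest value of the scale. Apoe was called without astrocyte replicate 5 or without microglia replicate 3 (lowest adjusted p 0.0275 in limma). Fth1, the heavy chain of ferritin, was higher in astrocytes (13.69 ± 0.52 against 12.39 ± 0.27), and Actb and Tmsb4x, of the actin cytoskeleton, in microglia (13.63 ± 1.08 against 11.12 ± 0.37, and 13.29 ± 0.23 against 11.21 ± 0.60). Cfl1, an actin-severing protein, had equal means, 10.12 ± 0.27 and 10.11 ± 0.44, as had Myl6, Slc25a5, Eif5a and Ndufa2 within 0.07 log2 units.

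The same contrast was called for 11.8% of genes tested in EAE-vehicle mice and for 8.36% in naive mice. With EAE-vehicle 2146 calls were shared, 65.1% of those in EAE-RIPK1inh mice and 60.1% of those in EAE-vehicle mice, all in the same direction. With naive mice 1579 were shared (47.9% and 64.1%), of which 3 had the opposite direction. The groups share no library. When the difference between contrasts was tested as an interaction in 1 fit of all 30 libraries, none of 30952 genes (0%) passed against EAE-vehicle (1066 at an unadjusted p under 0.05, smallest adjusted p 0.693, and 4 passed with a quality weight for each library). The gene with the smallest p was Aph1b, a subunit of gamma-secretase. It was at 3.85, 3.83, 3.77, 2.96 and 4.97 in EAE-RIPK1inh astrocytes, at 1.92, 0.00, 0.19, 1.06, 1.69 and 2.39 in EAE-vehicle astrocytes and at 3.35 to 4.12 in naive astrocytes, with microglia means of 0.26 to 0.53. The difference between contrasts was -2.94 ± 0.58 and did not pass. Over members the median SE of the difference between contrasts was 0.93 log2 units, so the count of 0 does not show that the contrasts were alike.

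Against naive mice 77 genes (0.249%) passed, 64 of them members, with a contrast, as microglia minus astrocytes, that was greater than in naive mice for 35 members and smaller for 29. The sign does not tell which cell type differed. On simulated data with known shifts this fit called more unshifted than shifted genes, so those that passed may include false calls. This comparison joins the effects of EAE and of dosing, which cannot be told apart in it, and the values of EAE-vehicle mice are given beside it. Pla2g7, a phospholipase that degrades platelet-activating factor, was at 2.09 ± 1.42 in microglia and 10.47 ± 0.12 in astrocytes of naive mice, and at 6.68 ± 1.12 and 9.10 ± 0.68 in EAE-RIPK1inh mice (7.77 and 7.92 in EAE-vehicle mice). The contrast thus shrank by 5.97 log2 units (adjusted p = 0.000222, exact permutation p = 6.3e-05 over relabelings of the libraries within each cell type, which do not keep the cell types of a mouse together). The null of these relabelings is that neither cell type differed between naive and EAE-RIPK1inh mice, and not that the contrasts were equal. The means of Apoe had opposite orders, 11.18 in microglia and 13.92 in astrocytes of naive mice against 14.30 and 12.48 in EAE-RIPK1inh mice (adjusted p = 0.00057, exact permutation p = 0.000441), with 14.11 and 11.62 in EAE-vehicle mice.

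The levels behind the other listed genes that passed differed in one cell type or in both, and only the difference between the contrasts was tested. The receptor gene Fcrls was at 9.36 ± 0.38 in naive microglia and 4.49 ± 1.72 in EAE-RIPK1inh microglia (3.64 in EAE-vehicle), and P2ry12, the ADP receptor of resting microglia, at 12.72 ± 0.48 and 8.82 ± 0.82 (8.56 in EAE-vehicle). Axl, a receptor for apoptotic cells, was higher in astrocytes of naive mice (6.20 against 3.48 in microglia). It had the higher mean in microglia of EAE-RIPK1inh mice (7.14 against 4.34) and of EAE-vehicle mice (6.35 against 3.91). Hspb1, a small heat shock protein, was at 4.06 ± 1.77 in microglia and 2.76 ± 2.18 in astrocytes of naive mice, and at 0.99 ± 1.33 and 6.52 ± 1.04 in EAE-RIPK1inh mice (0.36 and 6.66 in EAE-vehicle). Psmb8, an immunoproteasome subunit, had a contrast of 7.67 in naive mice, where astrocytes were at 0.06, and of 1.19 in EAE-RIPK1inh mice, where astrocytes were at 8.12 ± 0.65 (8.84 in EAE-vehicle). Its adjusted p was the smallest of all, 3.18e-11, with an exact permutation p of 0.0272. The fit gives all 6 groups 1 spread per gene. For 4 of the 21 listed genes that passed, Psmb9, Igtp, B2m and H2-Aa, the exact permutation p was over 0.05 (0.0515 to 0.235). The relabelings also move differences that both cell types share, so this p does not test the contrast alone. B2m, for one, was higher than in naive mice in both cell types (14.02 against 12.53 in microglia, 11.69 against 8.75 in astrocytes). The GLAST gene Slc1a3, at 7.33 ± 0.19 in naive astrocytes and 5.22 ± 0.29 in EAE-RIPK1inh astrocytes (5.39 in EAE-vehicle), was also among the 21, and it belongs to the sorting gate.

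**Figure D5:**
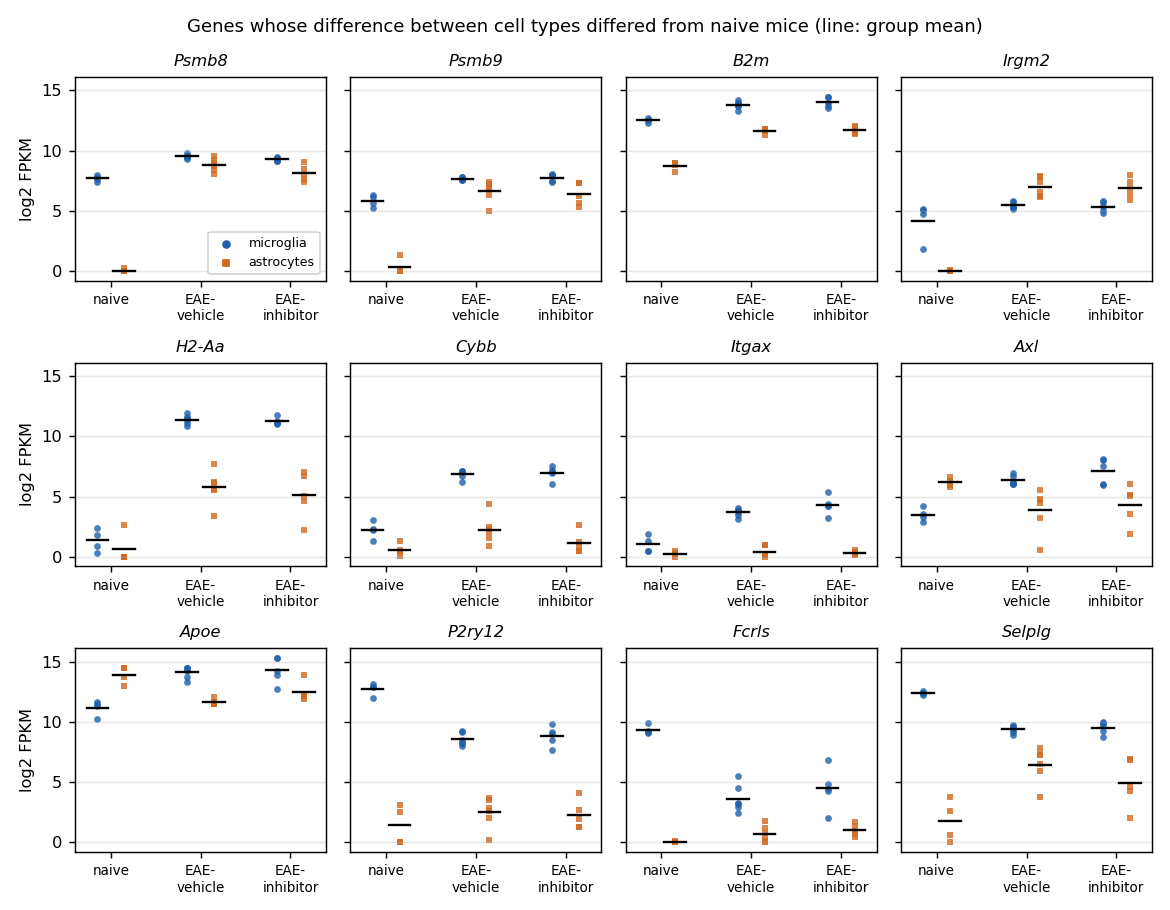
log2 FPKM (vertical axis) of genes whose contrast of cell types differed between naive and EAE-RIPK1inh mice, by treatment and cell type (horizontal axis), 1 point per library with the group mean. Apoe means were 11.18 in naive, 14.11 in EAE-vehicle and 14.30 in EAE-RIPK1inh microglia, and 13.92, 11.62 and 12.48 in astrocytes.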

How the data were processed

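Microglia and astrocytes were sorted from mouse spinal cord, and poly(A) RNA was amplified as full-length cDNA by PCR, fragmented with Tn5 and sequenced on a DNBseq platform. The authors aligned the reads and derived FPKM per gene in Array Studio, normalized them and deposited log2 FPKM for 30 libraries. The aligner, the genome build and the offset before the logarithm are not given in the sources used here. Gene positions in the deposited table equal those of the GRCm38 annotation for 30932 of 30932 matched genes. The sorted values of all 30 libraries are identical, so differences are relative to the other genes of a library, and genes without reads hold small values that rise with their order in the file. Depth is unknown, since no counts can be recovered, and amplification without molecular identifiers adds error that was not measured.

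Microglia and astrocytes of EAE-RIPK1inh mice were compared over 28301 genes whose values differ, with limma 3.58.1 (R 4.3.3, lmFit and eBayes with trend) and Benjamini-Hochberg adjustment. A gene was called at an adjusted p under 0.05 and a fold over 1.5. The methods of the study use a paired test per gene, which was not applied because the labels do not say which libraries share a mouse. The microglia and astrocytes of a group came from the same mice, so libraries treated as independent may not be. Differences from naive and EAE-vehicle in the contrast were interaction terms over all 30 libraries, which give the 6 groups 1 spread. For listed genes that passed against naive, an exact permutation of the treatment labels within each cell type (15876 relabelings) was added after the data were seen. Its null is no difference between the treatments in either cell type, and not equal contrasts. P-values measure the spread between these libraries. The alternatives were filters, pseudocount, centring, weights, the block and left-out libraries. Python 3.11.15, numpy 2.4.6, pandas 2.3.3 and matplotlib 3.10.9 were also used. On simulated data with known shifts, each fit called only a minority of the shifted genes. Both interaction fits called more unshifted than shifted genes there, so the genes that passed against naive may include false calls. The fit against naive called more unshifted genes there than passed in the data. Its adjusted p values are thus no measure of the share of false calls.

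Members and gene lists were chosen with earlier results of these data known. Genes named are those of the lists and pairs, the 10 largest called differences in each direction and the 10 highest means of each cell type among protein-coding genes, the 5 genes with means of at least 8 and the smallest difference, and the 3 smallest p values of each interaction. Some genes that the rule names are not reported here. Promoter sequences are from RefSeq.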

Additional observations from a re-analysis of the deposited data

Results flagged for a closer look

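For 28 of 327 groups of 5 libraries checked (1 gene in 1 cell type, over the genes named in the text with signal in all 5), the highest or lowest library stood apart from the other 4 by over 0.71 of the whole range, Dixon's 95% limit. Chance alone gives about 1 in 20 such groups. The log2 FPKM of the library that stood apart is given for each, with the range of the other 4. Microglia replicate 2 had Aldoc at 0.33 (others 2.43 to 3.06), Eno1 at 7.52 (others 7.74 to 7.82), Gja1 at 1.05 (others 0.30 to 0.51) and Il1b at 2.73 (others 4.82 to 5.39). Microglia replicate 3 had Ifit3 at 5.80 (others 6.62 to 6.91), Ikbkg at 1.69 (others 3.05 to 3.50), Lcn2 at 9.73 (others 2.16 to 3.55), Myl6 at 9.37 (others 8.65 to 8.84), Pld4 at 9.43 (others 10.00 to 10.23) and Tlr3 at 2.74 (others 4.57 to 5.14). Microglia replicate 4 had Ccl9 at 2.70 (others 4.39 to 4.93), Fth1 at 12.87 (others 12.23 to 12.32) and H2-Aa at 11.81 (others 11.04 to 11.25). Microglia replicate 5 had Aldh1a1 at 1.29 (others 0.32 to 0.57) and Ctss at 15.34 (others 13.93 to 14.20). Astrocyte replicate 1 had Idi1 at 8.28 (others 6.77 to 7.07), Igtp at 7.55 (others 9.56 to 10.27), Rpl35 at 4.69 (others 6.68 to 7.12) and Serping1 at 1.70 (others 6.73 to 8.33). Astrocyte replicate 2 had Timp1 at 6.37 (others 4.21 to 4.76). Astrocyte replicate 3 had Acsbg1 at 9.63 (others 9.92 to 10.03). Astrocyte replicate 5 had Apoe at 13.93 (others 11.93 to 12.23), C1qa at 2.26 (others 5.33 to 5.81), Gja1 at 10.85 (others 8.06 to 8.71), Mt3 at 11.25 (others 10.79 to 10.92), Ncan at 6.97 (others 5.49 to 5.88), Snap25 at 5.43 (others 7.94 to 8.56) and mt-Nd1 at 14.20 (the others all at 14.48). At the top of the quantile-normalized scale neighbouring values lie far apart, and 15.34 is its highest value. The flags of mt-Nd1 and Ctss may thus be no more than steps of that scale.

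For 17 genes named in the text the contrast of microglia and astrocytes differed between EAE-RIPK1inh and naive mice at an adjusted p under 0.05 (interaction term in limma). The contrast in log2 units, microglia minus astrocytes, was higher in EAE-RIPK1inh mice for Apoe (4.57), Axl (5.51), Cybb (4.16), H2-Aa (5.45), Itgax (3.15), Pfkp (3.12), Pla2g7 (5.97) and Slc1a3 (2.26). It was lower for B2m (-1.44), Ctss (-3.08), Fcrls (-5.86), Hspb1 (-6.83), Igtp (-5.04), P2ry12 (-4.74), Psmb8 (-6.48), Psmb9 (-4.11) and Selplg (-6.07). The exact permutation of the treatment labels gave a p of 0.0515 for Igtp, 0.074 for Psmb9, 0.179 for H2-Aa and 0.235 for B2m, and of at most 0.0272 for the other 13. Its relabelings also move differences that both cell types share, so it does not test the contrast alone. The interaction fit made false calls on simulated data, so the 17 genes may include such calls. Naive mice had neither EAE nor treatment, so the parts of EAE and of the inhibitor cannot be told apart here, and none of these genes passed when EAE-RIPK1inh was set against EAE-vehicle. GLAST, the product of Slc1a3, was itself used in the astrocyte gate.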

How the results depend on the processing

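Of the 28301 genes tested, 3296 passed, 1858 higher in microglia and 1438 in astrocytes. The count was 1392 (of 13557 tested) with only genes not marked as confounded with another gene, 1726 (of 5040) with only genes with signal in all 10 libraries, 1995 with a weight for each cell type, and 6189 at an unadjusted p under 0.05. With a quality weight for each library it was 3839, split into 1714 and 2125. The other alternatives gave 3063 to 4370, and leaving out 1 library 2499 (without microglia replicate 5) to 3230 (without astrocyte replicate 5). The smaller tables have fewer genes to call, and the causes of the other shifts were not tested.

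With the replicate block the count was 2057, and the labels do not say that same-number libraries share a mouse, although both cell types came from the same mice. The correlation of their deviations was small, from -0.006 to 0.063. Of these libraries, 4 of 5 microglia and 3 of 5 astrocyte libraries correlated best with their own number. The block was not used for the reported calls because the labels do not give the pairing, so these calls ignore any pairing there was. The monocyte markers, in order of number, were at means of 2.15, 4.74, 6.03, 4.65 and 3.56 in microglia and 0.65, 2.67, 4.53, 4.06 and 1.56 in astrocytes. Number 1 was lowest and number 3 highest in both. The T cell markers were highest in number 3 in microglia (2.35) and in number 4 in astrocytes (6.23). Whether libraries with the same number share a mouse was not tested. Under the block the difference from EAE-vehicle gave 0 genes and that from naive 23.

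The count of genes whose contrast differed from EAE-vehicle was 0, then 4 with a weight for each library, and 0 to 1 with 1 library left out (1 without EAE-RIPK1inh microglia replicate 1 and 1 without EAE-vehicle astrocyte replicate 1). The count against naive was 77, then 128 with only genes with a mean of at least 1 and 324 with a weight for each library. With 1 library left out it was 50 (without EAE-RIPK1inh microglia replicate 2) to 111 (without EAE-RIPK1inh astrocyte replicate 5).

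Of 164 called genes named in the text, 123 kept the call in every alternative. With 1 library left out, 23 lost it in at least 1 case, with adjusted p values of 0.021 to 0.0461 at first and at most 0.0549 (Rtp4) to 0.111 (Sharpin) after (Adora1, Bmpr1b, C2, Ccl5, Cd3g, Cd79b, Cflar, Ciita, Cx3cl1, Fth1, Hoxc9, Igf1, Mcm3, Mx1, Notch2, Npc1, Psmb8, Ptch1, Rarres2, Ripk1, Rtp4, Sharpin and Zbp1), and 15 of the genes not called gained it. Of the rest, 18 lost it under other alternatives. A weight for each cell type ended the calls of Abca1, Abcg1, Actb, C4b, Ccl4, Ccl9, Ccnb2, Ctsl, Cx3cr1, Fcrls, Gbp2, Pla2g7, Sparc, Srebf2, Tnfrsf1b, Zfp36 and mt-Cytb (adjusted p from 0.0554 for Ccl9 to 0.199 for Fcrls). A weight for each library also ended those of Actb, Fcrls, Gbp2, Pla2g7 and Srebf2, the block that of Pla2g7 (0.106), and all 30 libraries in the fit that of Ifit3. In all, 30 named genes lost the call with a weight for each cell type, 21 with the block and 12 with a weight for each library. The median difference of the purinergic, adenosine and transmitter receptor list was -1.12 rather than 1.83 with only the 6 genes not marked as confounded. Depth is unknown, so neither counting intervals nor limits for genes at 0 could be given.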
